A study of Homo sapiens with 6 samples.

Results

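Histone genes encode the proteins around which nuclear DNA is wrapped. They were chosen by gene symbol, by patterns that take the HIST gene clusters and the named variant genes (H2AF, H3F3, H1F0 and H1FX). The patterns matched 111 of the 53826 entries in each table. Of these, 90 belonged to the replication-dependent genes of the HIST clusters and 21 to the variant genes. RNA-seq was performed on 3 libraries of A549-GFP cells and 3 of A549-TIPARP cells. Both derive from A549, an established line of human lung adenocarcinoma. A549-TIPARP cells carried a retroviral pMXs transgene of TIPARP, a mono-ADP-ribosyltransferase, and A549-GFP cells carried the GFP gene in its place. No untransduced A549 cells are compared here, and whether the lines were cloned after transduction is not given in the sources used here.

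Nucleosomes contain the core histones H2A, H2B, H3 and H4, and linker histones of the H1 family bind the DNA between them. Replication-dependent histone mRNAs are made mainly in S phase, lack introns and usually end in a conserved stem-loop in place of a poly(A) tail. Variant histones replace the canonical proteins at particular places in chromatin, are made outside S phase as well, and mostly come from polyadenylated mRNAs. The libraries were made with a kit that selects polyadenylated RNA, and how much of each histone mRNA carried a poly(A) tail was not tested.

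The stem-loop set the gene groups apart in sequence, and the copies of the genes described below are shown, 5′ to 3′ on the mRNA strand, with the paired stem in capitals and the loop in lower case. All 71 coding replication-dependent genes held the 16 bases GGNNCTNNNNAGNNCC, with N positions of the stem able to pair, within 150 bases after the stop codon. The most common form occurred in 41 of the 71 genes. It is the form of HIST1H1C (chr6:26055744-26055759, minus strand), HIST1H3B (chr6:26031597-26031612, minus strand) and HIST1H2AC (chr6:26124669-26124684, plus strand). The form with another loop base occurred in 10 genes, among them HIST1H2BK (chr6:27146366-27146381, minus strand) and HIST1H2BD (chr6:26158587-26158602, plus strand). HIST2H2AC (chr1:149887391-149887406, plus strand) had a form found in no other member. Of the 14 coding variant genes, 1 held such a stem-loop, H2AFX (chr11:119094898-119094913, minus strand), which encodes the H2A variant phosphorylated at DNA breaks. Positions are those of hg38 with GENCODE 44 gene models, and every one lies in the 3′ untranslated part of the single-exon canonical transcript. HIST1H2AC and HIST1H2BD also have longer transcripts in GENCODE 44, and HIST1H2BK has a RefSeq gene span of 8566 bases.
HIST1H1C, HIST1H3B and HIST1H2AC: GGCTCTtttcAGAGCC
HIST1H2BK and HIST1H2BD: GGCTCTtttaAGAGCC
HIST2H2AC: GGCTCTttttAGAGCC
H2AFX: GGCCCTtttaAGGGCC

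Among 19605 coding genes searched in the same window, 83 (0.423%) held these letters, and 72 of them were histone genes matched by the symbol patterns.

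The tables give the log2 of the TPM, a share of the transcripts of a library corrected for gene length, with every TPM below 1 set to 1. That lowest value is called the floor. Of the 111 members, 55 were above the floor in at least 1 library and 56 were at the floor in all 6. The 55 comprised 44 of the 90 replication-dependent genes and 11 of the 21 variant genes. Detection was steadier among the variants, of which 10 were above the floor in all 6 libraries, against 16 of the 90 replication-dependent genes. A further 12 replication-dependent genes were above the floor in only 1 library. By histone class, replication-dependent genes above the floor were 3 of 8 for H1, 10 of 23 for H2A, 13 of 26 for H2B, 6 of 17 for H3 and 12 of 16 for H4. The 90 genes include 19 pseudogenes. Coding genes at the floor in all 6 libraries were 3 of 6 for H1, 7 of 17 for H2A, 6 of 18 for H2B, 9 of 15 for H3 and 3 of 15 for H4. The clusters of chromosome 6 held 66 of the 90 genes, with 31 above the floor, and those of chromosome 1 held 21, with 12 above the floor. The coding genes on chromosome 6 lay within chr6:25723397-27893891. Of the 26 pseudogenes among the members, only HIST2H2BC (now H2BC20P, chr1:149850193-149850772, minus strand) was above the floor.

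For tests, genes with a TPM above 2 in at least 1 library were kept, which gave 13181 genes, 25 replication-dependent and 10 variant histone genes among them. The other 20 members above the floor reached at most 1.91 TPM. All 10 variants had TPM above 2 in every library. Of the 25 replication-dependent genes, 20 passed this limit in both lines, HIST1H3B and HIST1H2AG in A549-TIPARP only, and HIST2H4A, HIST1H2BF and HIST1H2BN in A549-GFP only. These 5 were kept through the line in which they were high, so their differences are partly set by the limit. Several histone genes are near copies of each other. The coding sequences of HIST2H2AA3 and HIST2H2AA4, of HIST2H4A and HIST2H4B, and of HIST1H4J and HIST1H4K are identical, so the value of each copy is uncertain. Of the 35 tested members, 16 share annotated bases with another gene, and whether the strand was used in quantification is not given in the sources used here.

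TPM values are given in the order of replicates 1, 2 and 3 of each line. TIPARP, the gene on the transgene, was measured at 6.79, 11.4 and 3.68 TPM in A549-GFP and at 131, 90.5 and 123 TPM in A549-TIPARP, as the labels say (adjusted p = 0.0125, limma, Benjamini-Hochberg over 13181 genes). The adjusted p in limma was 0.0331 without A549-GFP replicate 2 and between 0.0526 and 0.192 without any other library, 0.287 without A549-GFP replicate 2 and A549-TIPARP replicate 3 together and 0.0965 with no filter beyond the floor, while the difference stayed between 3.54 and 4.24 on the log2(TPM + 1) scale. With a replicate block the adjusted p of TIPARP in limma was above 0.05, as given below. All 6 epithelial markers were above the floor in every library. Of 9 markers of blood, endothelial and fibroblast lineages, 7 were at the floor throughout, COL1A1 reached 2.56 TPM and LUM was above the floor in 1 library. The libraries of each line were not alike. In A549-GFP replicate 2 and A549-TIPARP replicate 3, all 20 of 20 S phase genes (the MCM helicase, RRM2, CCNE1 and others) were below their values in the other 4 libraries. The median deviation of this list from the mean of each gene over the 6 libraries was -2.001 and -0.82 on the log2 scale in these libraries and 0.53 to 0.997 in the other 4. In bulk RNA, fewer cells in S phase and less S phase RNA per cell cannot be told apart. The labels number experiments 1 to 3 but do not state separate cultures, so p-values measure the spread between these samples, which may be technical.

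The variant genes had the higher summed TPM in every library. The kit selects polyadenylated RNA, so these sums do not rank the groups by abundance in the cells. The summed TPM of the variant genes was 2778, 2389 and 2604 in A549-GFP replicates 1, 2 and 3 and 2807, 2895 and 1985 in A549-TIPARP replicates 1, 2 and 3. The sums of the lines overlapped, and the mean log2 sum of A549-TIPARP differed from that of A549-GFP by -0.03. The replication-dependent genes summed to 289, 484 and 288 TPM in A549-GFP and to 373, 339 and 341 TPM in A549-TIPARP. The difference of the mean log2 sums was 0.03, while the means of the sums themselves were 354 ± 113 (SD, n = 3) TPM in A549-GFP and 351 ± 19.3 (SD, n = 3) TPM in A549-TIPARP, so no direction is given. Here the highest sum came from A549-GFP replicate 2, and the 3 sums of A549-TIPARP lay between it and the other A549-GFP sums. Leaving out the libraries of low S phase genes gave a difference of the mean log2 sums of 0.30 for the replication-dependent genes and of 0.08 for the variants. H2B genes made up 53.8% to 63.0% of the replication-dependent sum, and H3 genes at most 3.35%.

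**Figure D1:**
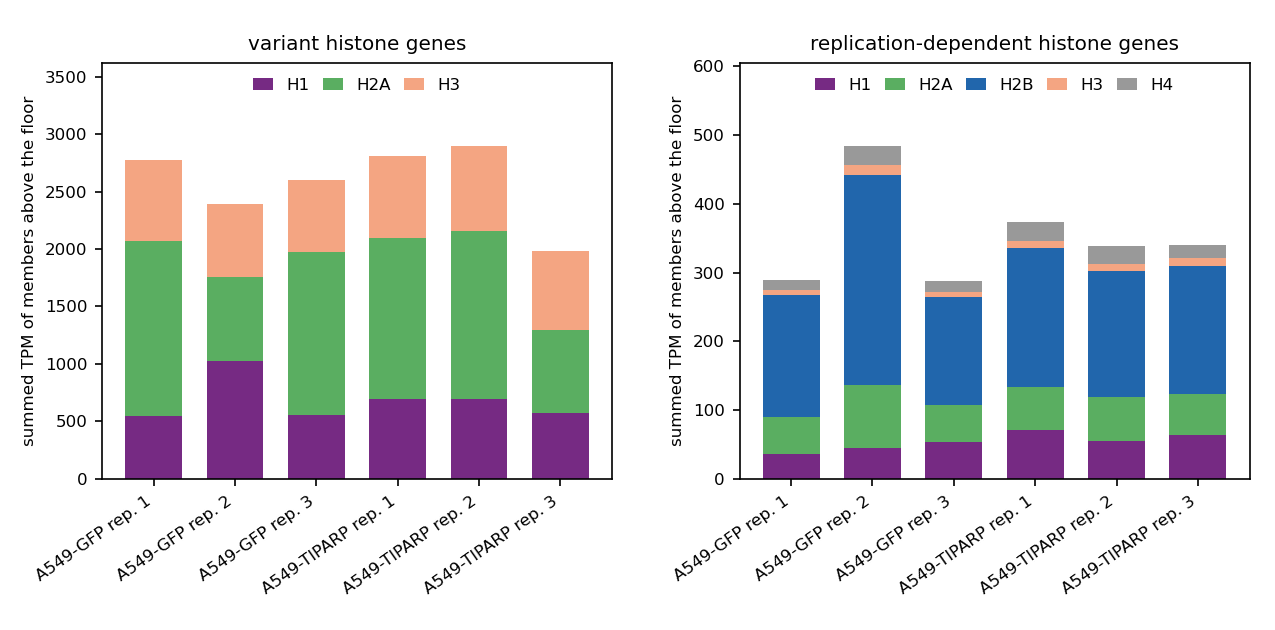
Summed TPM (vertical axis) of the members above the floor in each of the 6 libraries, stacked by histone class, for variant genes (left) and replication-dependent genes (right). A549-GFP replicate 2 has the highest replication-dependent sum (484 TPM) and A549-TIPARP replicate 3 the lowest variant sum (1985 TPM).

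A few genes carried the replication-dependent signal. HIST1H2BK, a histone H2B gene (now H2BC12), was measured at 125, 218 and 112 TPM in A549-GFP and 147, 127 and 144 TPM in A549-TIPARP. It supplied 37.5% to 45.0% of the replication-dependent sum. HIST1H1C, which encodes linker histone H1.2, was measured at 36.5, 45.1 and 50.6 TPM in A549-GFP and 70.6, 53.3 and 64.1 TPM in A549-TIPARP. Each A549-TIPARP value of HIST1H1C exceeded each A549-GFP value. The H2B gene HIST1H2BD followed with 21.4, 69.8 and 20.1 TPM in A549-GFP and 26.0, 26.9 and 27.7 TPM in A549-TIPARP. The H2A gene HIST1H2AC had 16.8, 53.8 and 13.5 TPM in A549-GFP and 16.8, 18.9 and 20.1 TPM in A549-TIPARP. For both genes A549-GFP replicate 2 stood above all other libraries. HIST3H2A, an H2A gene of a small cluster on chromosome 1, had 11.3, 20.5 and 11.5 TPM in A549-GFP and 14.01, 12.2 and 17.7 TPM in A549-TIPARP, with overlapping lines. The leading 4 genes made up 66.8% to 79.9% of the replication-dependent sum in each library, and they were HIST1H2BK, HIST1H1C, HIST1H2BD and HIST1H2AC in all 6.

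Many H2A and H2B genes stand head to head and share the DNA between their starts. Among 12 such pairs, with starts 170 to 251 bases apart, both partners were above the floor in 6, 1 partner in 4 and neither in 2. The values of the partners could differ widely. They come from a kit that selects polyadenylated RNA, and whether the partners differed in transcription was not tested. HIST1H2BK was above 100 TPM in every library, while its partner HIST1H2AH was listed at the floor in all 6. HIST3H2A was above 11 TPM in every library, and its partner HIST3H2BB was listed at the floor in all 6. Over the 6 libraries HIST1H2AC averaged 5.68-fold above its partner HIST1H2BC on the log scale.

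Genes with and without a longer annotated form differed in detection, in a grouping made after the values were seen. An extended transcript, with over 200 bases after the stop codon in GENCODE 44 or a RefSeq gene span over 1000 bases, was annotated for 16 of the 71 coding replication-dependent genes. Of these 16, 13 (81.2%) were above the floor in at least 1 library and 10 in all 6. Of the other 55 genes, 30 (54.5%) were above the floor in at least 1 library and 5 in all 6. HIST1H2BK, HIST2H4B and HIST1H3D were in the extended group through the RefSeq span alone, with 56 or 57 bases after the stop codon in GENCODE 44. HIST2H4A, whose coding sequence is identical to that of HIST2H4B, was among the others. HIST1H1C was the highest of the others, with a geometric mean of 52.1 TPM over the 6 libraries, and HIST1H2BK the highest of the extended group, with 142 TPM. Which form of these transcripts the reads came from was not tested.

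**Figure D2:**
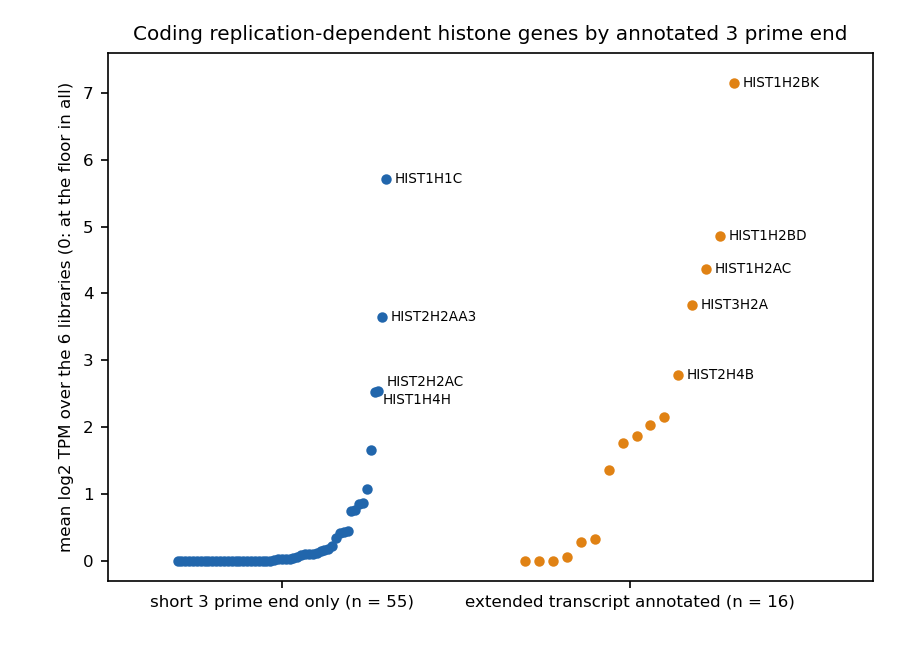
Mean log2 TPM over the 6 libraries (vertical axis, 0 is the floor in all) of each of the 71 coding replication-dependent genes, as points, split by whether an extended transcript is annotated. Of the 16 genes with an extended transcript 10 were above the floor in all 6 libraries, against 5 of the 55 others.

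Among the variants, H2AFZ, which encodes H2A.Z, was measured at 938, 448 and 913 TPM in A549-GFP and 818, 913 and 382 TPM in A549-TIPARP. The low value of each line fell in a library with low S phase genes. H3F3A, an H3.3 gene, had 414, 347 and 382 TPM in A549-GFP and 424, 436 and 404 TPM in A549-TIPARP. H3F3B encodes the same H3.3 protein from another locus, with 294, 282 and 248 TPM in A549-GFP and 290, 304 and 281 TPM in A549-TIPARP. H3F3A exceeded H3F3B in all 6 libraries, by a ratio of 1.23 to 1.54. The linker histone gene H1FX had 274, 265 and 325 TPM in A549-GFP and 364, 348 and 316 TPM in A549-TIPARP. H1F0, which encodes the linker histone H1.0 known to accumulate in cells that stop dividing, had 271, 758 and 232 TPM in A549-GFP and 329, 343 and 260 TPM in A549-TIPARP. H1F0 was the highest histone gene in A549-GFP replicate 2 and H3F3A in A549-TIPARP replicate 3, while H2AFZ was the highest in the other 4 libraries. The levels of H1F0, H1FX and H3F3B overlapped across the libraries. The other variants were the macroH2A genes H2AFY and H2AFY2, the H2A.Z gene H2AFV, H2AFJ, and H2AFX, with means over the 6 libraries between those of H3F3B and H3F3C. H3F3C stayed at or near the floor, at no more than 1.18 TPM.

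**Figure D3:**
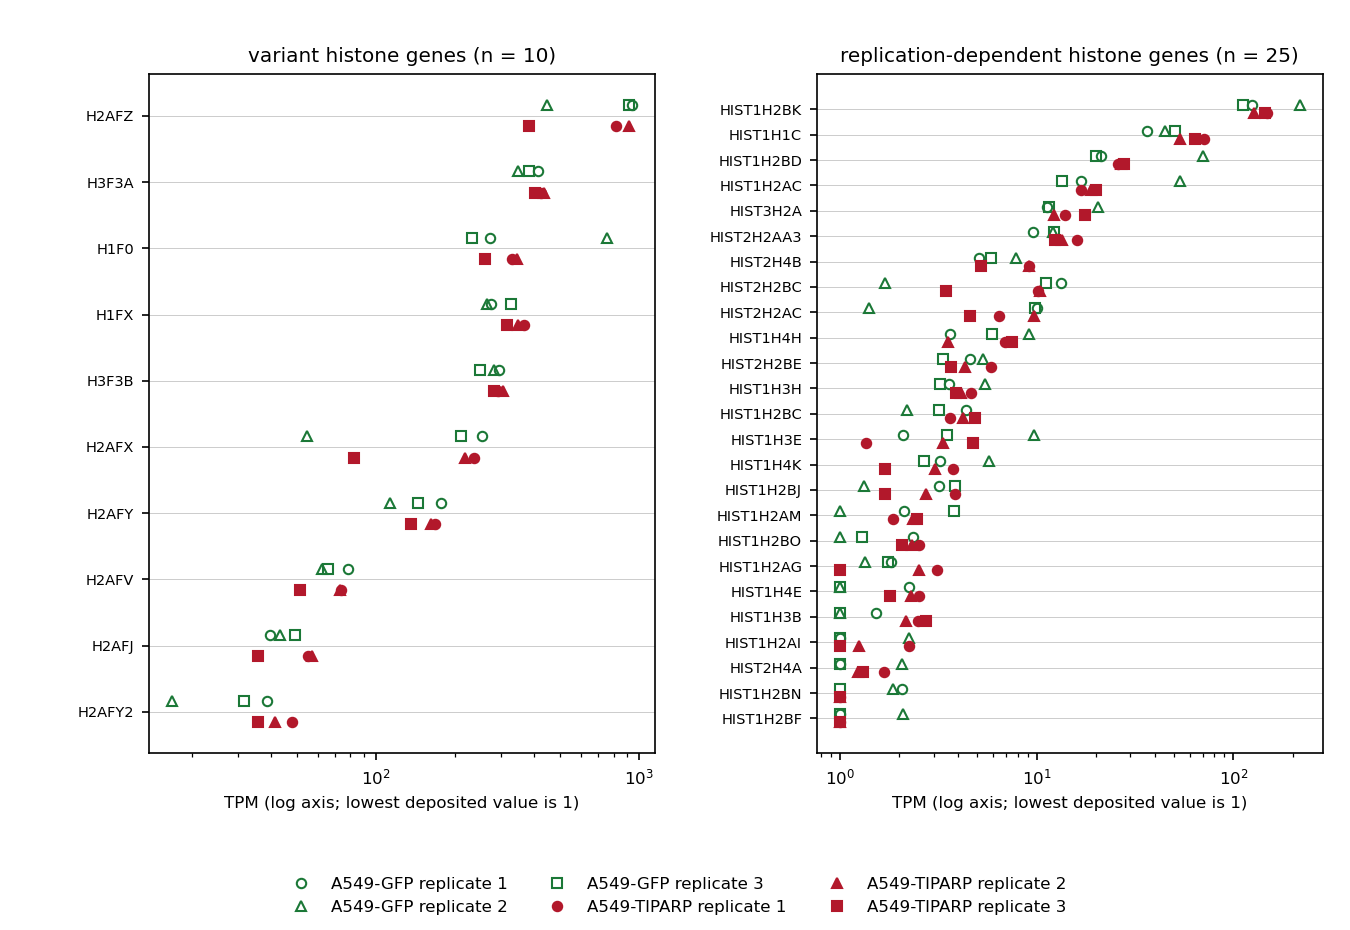
TPM on a log axis (horizontal) of the 10 variant and 25 replication-dependent genes with TPM above 2 in at least 1 library, with 1 point per library (open green, A549-GFP; filled red, A549-TIPARP; the shape gives the replicate). The points of the lines overlap for all variants and for 22 of the 25 replication-dependent genes.

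The comparison of the lines asked whether histone genes differed with the TIPARP transgene. No histone gene passed the test. With limma on log2(TPM + 1) and an adjusted p-value under 0.05, 0 of 25 replication-dependent and 0 of 10 variant genes were called, where 0.0152% of all genes were. At an unadjusted p-value under 0.05, 2 of the 25 replication-dependent genes and 0 of the 10 variants were counted, beside 3.85% of all genes. These were HIST1H3B and HIST1H1C, both higher in A549-TIPARP, beside 2.97% of all genes with such a p and a higher mean. HIST1H3B was kept for testing through its A549-TIPARP values alone, so this count partly follows from the limit of 2 TPM. Limma on the deposited values without a pseudocount also called 0 of both groups, with the same counts at an unadjusted p under 0.05 for the replication-dependent genes.

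HIST1H3B, a histone H3 gene, was measured at 1.53 TPM in A549-GFP replicate 1 and at the floor in replicates 2 and 3, and at 2.49, 2.17 and 2.75 TPM in A549-TIPARP. All A549-TIPARP values lay above all A549-GFP values, close to the floor. Its mean deposited log2 TPM was higher by 1.09 in A549-TIPARP. On the log2(TPM + 1) scale the difference was 0.68 ± 0.21 (SE), with an adjusted p of 0.956 in limma. HIST1H3B was the only histone gene past 2-fold, with 1 of 25 replication-dependent genes higher beside 1.53% of all genes and 0 lower beside 0.432%. It was kept for testing through its A549-TIPARP values alone, so these counts partly follow from the limit of 2 TPM. The difference of deposited values was 0.91 without A549-GFP replicate 2 and A549-TIPARP replicate 3. For HIST1H1C the difference was 0.50 ± 0.20 (SE) on the log2(TPM + 1) scale, with an adjusted p of 0.994 in limma. It was 0.50 without the libraries of low S phase genes as well.

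Lines without overlap were found for 3 of 25 replication-dependent genes, all higher in A549-TIPARP, beside 5.36% of all genes higher and 3.54% lower. They include HIST1H1C and HIST1H3B, and HIST1H3B was kept for testing through its A549-TIPARP values alone. This count therefore partly follows from the limit of 2 TPM. The third gene was HIST2H2AA3, an H2A gene, with 9.54, 12.1 and 12.3 TPM in A549-GFP and 16.03, 13.5 and 12.4 TPM in A549-TIPARP. Its lines were separated by less than their own spread, and its difference was 0.28 ± 0.21 (SE) with an adjusted p of 0.994 in limma. None of the 10 variants had lines without overlap, beside 8.91% of all genes in either direction. The smallest p among the variants was that of H2AFY2, with a difference of 0.57 ± 0.30 (SE) and an adjusted p of 0.994 in limma, and the difference was 0.23 without A549-GFP replicate 2.

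Means were higher in A549-TIPARP for 17 of the 25 replication-dependent genes (68%) and 7 of the 10 variants (70%), beside 40.1% of all genes. The median difference of log2 TPM was 0.11 for replication-dependent genes, 0.13 for variants and -0.07 for all genes. The replication-dependent median was 0.28 without A549-GFP replicate 2, 0.22 without A549-TIPARP replicate 3, -0.02 without A549-GFP replicate 3 and -0.04 without A549-TIPARP replicate 1, so its sign rested on single libraries. In A549-GFP replicate 2 the median of all genes was itself higher by 0.38 in log2 TPM than in the other A549-GFP libraries. The median difference of all genes with libraries left out is not given here. The variant median was between 0.04 and 0.23 with any 1 library left out, lowest without A549-TIPARP replicate 2 and highest without A549-TIPARP replicate 3. Differences ranged from -0.65 for HIST1H2BN to 1.09 for HIST1H3B, and from -0.23 for H1F0 to 0.59 for H2AFY2 among variants. Without A549-GFP replicate 2 these differences of the variants were 0.30 for H1F0 and 0.24 for H2AFY2. By class, the summed TPM of replication-dependent H1 genes was 36.5, 45.1 and 52.8 in A549-GFP and 70.6, 54.4 and 64.1 in A549-TIPARP, almost all of it HIST1H1C. The sums of the H2A, H2B, H3 and H4 genes overlapped between the lines.

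**Figure D4:**
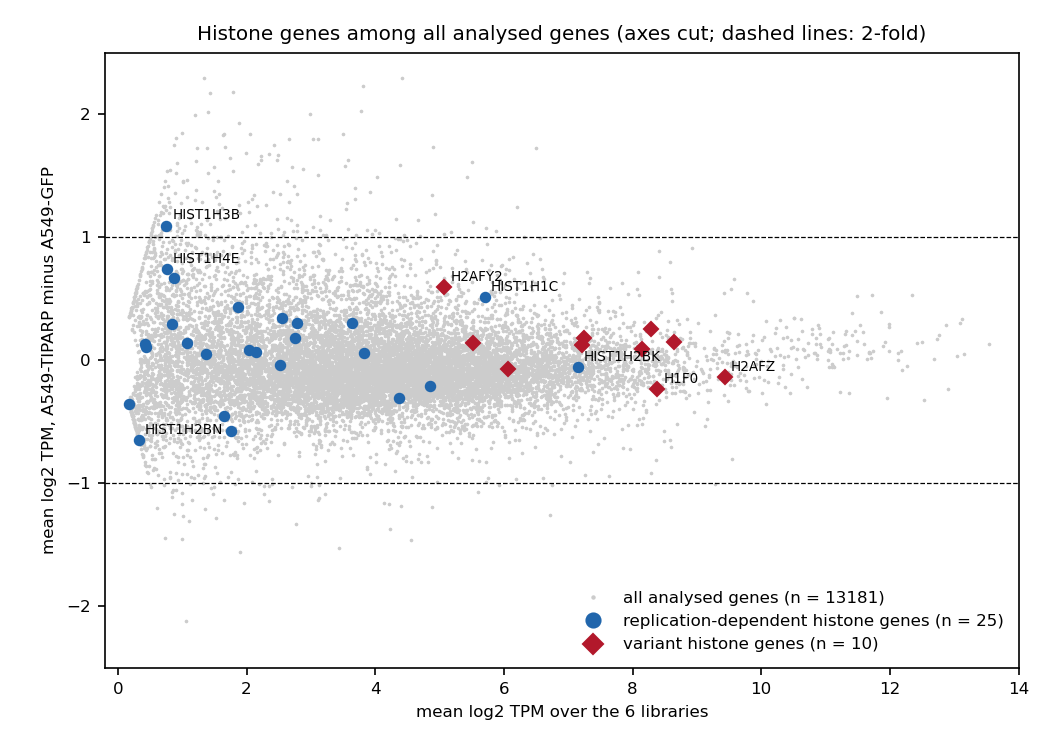
Difference of mean log2 TPM between A549-TIPARP and A549-GFP (vertical axis) against mean log2 TPM (horizontal axis) for the 13181 tested genes (grey), the 25 replication-dependent genes (blue circles) and the 10 variants (red diamonds), with dashed lines at 2-fold. Only HIST1H3B lies past 2-fold among the histone genes, and 6 genes lie outside the vertical axis and 2 outside the horizontal axis.

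All 10 variants were lowest of their line in A549-TIPARP replicate 3, beside 46.9% of all genes, and 7 of the 10 were lowest in A549-GFP replicate 2, beside 21.2%. Being lowest in both held for 7 of 10 variants and 5 of 25 replication-dependent genes, beside 16.1% of all genes. Both libraries lay below each of the other 4 for H2AFZ, H2AFX, H2AFY and H2AFV among the 10 variants and for HIST2H2BC, HIST2H2AC, HIST1H2BJ and HIST1H2AG among the 25 replication-dependent genes, beside 13% of all genes. HIST1H2BJ and HIST1H2AG had TPM above 2 only in libraries among the other 4, so their places here are partly set by the limit of 2 TPM. H2AFX was named for its values and reached 253, 54.8 and 211 TPM in A549-GFP and 237, 218 and 82.5 TPM in A549-TIPARP. In log2 TPM it was lower by 2.08 in A549-GFP replicate 2 and by 1.46 in A549-TIPARP replicate 3 than the mean of the other libraries of the line. The variants past 2-fold lower in both libraries were H2AFX and H2AFZ and the replication-dependent gene was HIST2H2BC, beside 2.46% of all genes.

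Replication-dependent genes differed in either direction in A549-GFP replicate 2, a library in which the median of all genes was higher by 0.38 in log2 TPM than in the other A549-GFP libraries, and that of the 25 replication-dependent genes by 0.45. Against the other A549-GFP libraries, A549-GFP replicate 2 was past 2-fold higher for 6 of 25 (HIST1H2AC, HIST1H3E, HIST1H2BD, HIST1H2AI, HIST1H2BF and HIST2H4A), beside 18% of all genes, and past 2-fold lower for 4 of 25 (HIST2H2BC, HIST2H2AC, HIST1H2AM and HIST1H2BJ), beside 4.99%. HIST1H2BF and HIST2H4A had TPM above 2 in this library alone and were kept for testing through it, so they lend no weight to the count of 6. The 4 lower genes were below 2 TPM in this library and kept through others, so their count is partly set by the same limit. Among the variants, H1F0 was higher and H2AFX, H2AFY2 and H2AFZ were lower. In A549-TIPARP replicate 3, HIST1H3E was past 2-fold higher, beside 2.53% of all genes, and HIST2H2BC, HIST1H2AG, H2AFX and H2AFZ past 2-fold lower, beside 3.07%. HIST1H2AG had TPM above 2 in A549-TIPARP replicates 1 and 2 alone, so its low value in replicate 3, also among the genes low in both libraries, is partly set by the limit of 2 TPM. H1F0 was not higher there, at 260 TPM. HIST2H2AC and its head-to-head partner HIST2H2BE, both also named after seeing their values, changed order. HIST2H2AC had 10.1, 1.42 and 9.85 TPM in A549-GFP and 6.41, 9.66 and 4.57 TPM in A549-TIPARP. HIST2H2BE had 4.61, 5.34 and 3.33 TPM in A549-GFP and 5.88, 4.34 and 3.65 TPM in A549-TIPARP. HIST2H2AC was the higher partner in 5 libraries and the lower in A549-GFP replicate 2. HIST2H2BC, an H2B pseudogene named in the same way, had 13.3, 1.69 and 11.2 TPM in A549-GFP and 10.1, 10.4 and 3.45 TPM in A549-TIPARP, low in the same libraries.

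**Figure D5:**
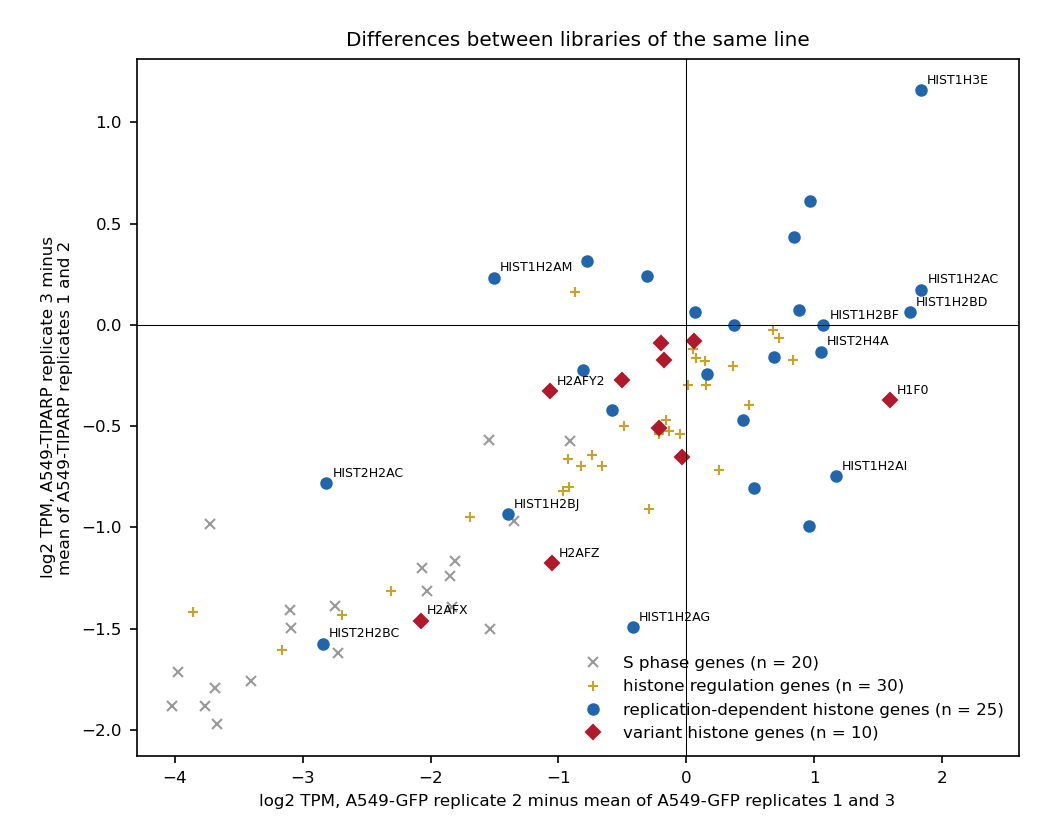
Difference of log2 TPM between A549-GFP replicate 2 and the other A549-GFP libraries (horizontal axis) and between A549-TIPARP replicate 3 and the other A549-TIPARP libraries (vertical axis), with 1 point per gene for variants (red), replication-dependent genes (blue), histone regulation genes (yellow) and S phase genes (grey). All 20 S phase genes are negative on both axes, as are H2AFX, H2AFZ and HIST2H2BC, while HIST1H2AC, HIST1H2BD and HIST1H3E lie on the right.

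The ratio of H2AFX to H1F0 summarised the opposite moves in A549-GFP. It was 0.93, 0.072 and 0.91 in A549-GFP replicates 1, 2 and 3 and 0.72, 0.64 and 0.32 in the A549-TIPARP replicates. Without both libraries of low S phase genes, an alternative chosen after the data were seen, the difference between the lines for H2AFX went from 0.18 ± 0.59 (SE) to -0.02 on the log2(TPM + 1) scale, and that of H1F0 from -0.23 ± 0.40 (SE) to 0.42, with an adjusted p of 0.394 in limma. The differences of HIST1H2AC and HIST1H2BD turned from -0.31 and -0.21 to 0.23 and 0.34. In that fit limma called 0 histone genes, and 4 of 25 replication-dependent genes and 1 of 10 variants had an unadjusted p under 0.05, beside 9.31% of all genes. The part of the S phase genes in these differences was not tested.

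The DNA before the start of H2AFX, H2AFZ and HIST1H1C is shown because the first pair were low in the same libraries and the third was among the genes with separate lines. Each run is the 250 bases before the RefSeq start in GRCh38.p14, 5′ to 3′ on the strand of the gene. Capitals mark matches to 3 motifs, which do not overlap here. CCAAT was searched on either strand, so that its reverse complement ATTGG also counts. TATAAA was searched on the sense strand only. TTTGAA was searched on either strand, so that its reverse complement also counts. The runs lie at chr11:119095466-119095715, chr4:99950276-99950525 and chr6:26056471-26056720, all on the minus strand.
H2AFX: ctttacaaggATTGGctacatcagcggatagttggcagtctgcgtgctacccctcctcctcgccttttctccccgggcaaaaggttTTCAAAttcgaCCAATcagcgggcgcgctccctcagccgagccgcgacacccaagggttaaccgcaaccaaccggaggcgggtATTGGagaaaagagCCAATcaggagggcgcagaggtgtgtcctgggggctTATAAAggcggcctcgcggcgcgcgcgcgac
H2AFZ: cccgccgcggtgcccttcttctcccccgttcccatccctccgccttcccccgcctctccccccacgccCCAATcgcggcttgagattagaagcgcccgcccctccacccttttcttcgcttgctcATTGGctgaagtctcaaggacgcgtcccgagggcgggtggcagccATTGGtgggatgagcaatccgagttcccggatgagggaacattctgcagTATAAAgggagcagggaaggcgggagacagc
HIST1H1C: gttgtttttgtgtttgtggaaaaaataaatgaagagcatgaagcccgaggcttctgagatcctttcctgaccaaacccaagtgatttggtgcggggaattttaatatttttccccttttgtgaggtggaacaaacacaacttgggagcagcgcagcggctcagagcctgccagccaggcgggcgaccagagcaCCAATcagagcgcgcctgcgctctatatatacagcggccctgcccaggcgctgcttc

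H2AFX held 4 CCAAT matches, H2AFZ 3 and HIST1H1C 1. The median number was 2.5 in coding replication-dependent genes and 3 in variants above the floor. Whether such matches go with the levels of these genes was not tested. RefSeq gave such a stretch for 78 of the 111 members. CCAAT occurred in 56 of 66 coding replication-dependent genes (84.8%) and in 6 of 9 variants above the floor, beside 33.0% of 27305 promoters. TATAAA occurred in 39 of the 66 (59.1%) and in 4 of the 9, beside 7.17% of all. TTTGAA occurred in 22 of the 66 (33.3%) and in 1 of the 9, H2AFX, beside 13.6% of all. Within the coding replication-dependent genes, CCAAT occurred in 25 of 26 at the floor in all libraries and in 31 of 40 above it, and the difference was not tested.

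Genes that act on histones were measured as well. A list of 30 genes for histone mRNA transcription, 3′ end processing and histone chaperones was tested in full. Limma called 0 of 30, with 0 at an unadjusted p under 0.05 and 0 past 2-fold in either direction, and their median difference was -0.07, as for all genes. SLBP, which binds the stem-loop of histone mRNAs, had 73.9, 32.4 and 50.4 TPM in A549-GFP and 59.2, 60.7 and 34.5 TPM in A549-TIPARP. NPAT, the coactivator of replication-dependent histone genes, had 4.86, 3.50 and 3.13 TPM in A549-GFP and 2.98, 3.31 and 2.26 TPM in A549-TIPARP. SLBP was below every other library in A549-GFP replicate 2 and A549-TIPARP replicate 3, as were 14 of the 30 genes of the list, beside 13% of all genes. For the 20 S phase genes limma also called 0, with 0 at an unadjusted p under 0.05 and 0 past 2-fold.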

How the data were processed

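Total RNA was extracted from 3 A549-GFP and 3 A549-TIPARP samples. Libraries were prepared with TruSeq Stranded mRNA and sequenced in pairs on a NovaSeq instrument. With Strand NGS at its default settings, the authors mapped reads against hg38 transcripts, and they deposited log2 TPM values with a lowest value of 0. No counts were used here, so the depth is unknown and no counting error is given. How reads shared by near-identical genes were assigned is not given in the sources used here.

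Values were turned back to TPM and tested as log2(TPM + 1) with limma 3.58.1 in R 4.3.3 (variance trend, Benjamini-Hochberg adjustment over 13181 genes with TPM above 2 in at least 1 library). Past 2-fold means a difference of mean deposited log2 values over 1. Histone genes were given per library when among the 5 highest of their group, past 2-fold, without overlap or with an unadjusted p under 0.05. Members and lists were chosen with earlier results of these data known. Stem-loops were read from hg38 with samtools 1.23.1 and GENCODE 44, and promoters from RefSeq. Other pseudocounts, filters, a rescaling, a replicate block and each library left out were tried.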

Additional observations from a re-analysis of the deposited data

How the results depend on the processing

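No histone gene was called by limma under any of 14 alternatives, and the smallest adjusted p was 0.278, for HIST1H3B without A549-GFP replicate 2. The number of replication-dependent genes past 2-fold higher was 1 as reported, 0 on the log2(TPM + 1) scale, and 0 without both A549-GFP replicate 2 and A549-TIPARP replicate 3. Leaving out each library in turn gave 0 to 3 higher and 0 to 1 lower. The count was 3 higher and 1 lower without A549-GFP replicate 1, and 0 higher without A549-GFP replicate 2 or without A549-GFP replicate 3. The sign of the difference was kept by 22 of 35 histone genes without A549-GFP replicate 2. It was kept by 33 of 35 after each library was rescaled by the median of its ratios to the average library, where the median log2 ratio removed was 0.27 in A549-GFP replicate 2 and -0.19 in A549-GFP replicate 3, and the genes that turned were HIST1H2BK and HIST1H4H. The sign was kept by 29 to 31 of 35 without any other library. HIST1H3B and HIST1H1C stayed positive in all of the alternatives in which they were tested. Same-numbered libraries had deviations correlated at 0.415, -0.486 and -0.358. These mixed values do not settle whether same-numbered libraries shared an experiment. With a replicate block 0 histone genes were called, with a smallest adjusted p of 0.999. The median difference of the replication-dependent genes ranged from -0.04 to 0.28 with each library left out in turn, and that of the variants from 0.04 to 0.23. For TIPARP the adjusted p with the replicate block was 0.513. Count-based tests were not run, since the tables hold TPM.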

Other observations

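Genes near the histone family but outside the symbol patterns, chosen after their values were seen, followed the within-line pattern to different degrees. CENPA, the centromeric H3 variant, was measured at 77.0, 7.49 and 59.1 TPM in A549-GFP (replicates in order) and at 62.0, 68.7 and 19.7 TPM in A549-TIPARP. HJURP, the chaperone of CENPA, had 153, 13.5 and 95.9 TPM in A549-GFP and 86.1, 97.4 and 30.1 TPM in A549-TIPARP. ASF1B, a chaperone of H3 and H4, had 62.0, 3.77 and 48.3 TPM in A549-GFP and 52.2, 44.4 and 18.0 TPM in A549-TIPARP. All 3 genes were low in the libraries with low S phase genes. H3F3AP4, an H3F3A-related pseudogene, had 141, 98.7 and 113 TPM in A549-GFP and 131, 137 and 120 TPM in A549-TIPARP, and how many of these reads belong to H3F3A was not tested.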
